A study of Mus musculus with 18 samples.

Results

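mmu-miR-181c-5p and mmu-miR-181d-5p are the minor members of the miR-181-5p family in mouse thymocytes, and the reads that join them to target RNA were followed here through 12 chimeric-read libraries. A read counted as a member when its miRNA name was miR-181c-5p or miR-181d-5p and its target position lay outside the Mir181 hairpins. This rule gave 19177 of 1190995 chimeric reads, 11761 of mmu-miR-181c-5p and 7416 of mmu-miR-181d-5p. They name 2 of the 374 miRNAs in the libraries, and below they are also called c and d, beside miR-181a-5p (a) and miR-181b-5p (b).

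The study used miR-eCLIP, in which RNA bound to Argonaute 2 (Ago2) is crosslinked with ultraviolet light, the miRNA is ligated to its target fragment, and the joined (chimeric) molecule is sequenced. Thymocytes came from C57BL/6 wild-type mice and from B6.Mirc14tm1.1Ankr mice, whose samples are titled miR181a/b-1-KO and which lack the Mir181a-1 and Mir181b-1 hairpins on chromosome 1. All mice were 6 weeks old. Each genotype gave 3 Ago2 immunoprecipitation (IP) libraries of all miRNAs and 3 libraries in which miR-181 chimeras were further enriched. The labels do not say whether the 3 libraries of a group came from separate animals, so every test below measures only the spread between libraries. The knockout leaves Mir181c and Mir181d in place, as well as Mir181a-2 and Mir181b-2 on chromosome 2.

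A miRNA guides Ago2 to RNAs that pair with its seed, bases 2 to 8 from its 5′ end, and the bases after the seed can add pairing that separates one family member from another. miR-181 is known in the thymus for raising the sensitivity of T cell receptor signalling, a role attached mainly to miR-181a. miR-181c and miR-181d are made from neighbouring hairpins. Mir181c lies at chr8:84178873-84178961 and Mir181d at chr8:84178716-84178787, 85 bases apart (RefSeq, GRCm38.p6). The 4 mature sequences, from RefSeq with the GRCm38.p6 table, are shown because they share the seed, in capitals, and differ after it:

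miR-181a-5p: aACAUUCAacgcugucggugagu
miR-181c-5p: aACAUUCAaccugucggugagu
miR-181b-5p: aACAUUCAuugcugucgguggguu
miR-181d-5p: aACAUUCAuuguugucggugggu

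The 4 names are all that carry this seed among the 1679 mature miRNAs of the table. Counted from the 5′ end, miR-181a-5p and miR-181c-5p share their first 10 bases, and miR-181c-5p is miR-181a-5p without the G at position 11. miR-181b-5p and miR-181d-5p share their first 11 bases and differ by C12U and by the loss of 1 base at the 3′ end. miR-181c-5p and miR-181d-5p share only 8 bases before they part, with an edit distance of 5. By sequence, then, c stands next to a and d next to b.

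The libraries held from 6832 to 293149 chimeric reads, and the 3 knockout enriched libraries were the shallowest, with 12186, 19264 and 6832. Thymocyte identity was visible in the c and d reads themselves. Of 10 thymocyte marker genes 9 held such reads, 297 in all, while the 4 B cell, 4 myeloid and 4 thymic epithelial markers held 0 and the 4 erythroid markers 1. Knockout enriched libraries 2 and 3 did not differ beyond counting noise in their gene-by-miRNA counts (chi-square p = 0.25 over 50 pairs), nor did knockout enriched libraries 1 and 3 (p = 0.0885 over 60 pairs) or wild-type Ago2 IP libraries 2 and 3 (p = 0.174), whereas knockout enriched libraries 1 and 2 did (p = 0.026 over 146 pairs). All were kept as separate samples, and calls on single genes that are lost when knockout enriched libraries 2 and 3 are summed are given both ways.

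Since the 4 names differ by few bases, their hairpins offer a check on how well they were told apart. In the wild-type enriched libraries the Mir181a-1 hairpin held 73228 reads named miR-181a-5p and 2 named miR-181c-5p. Outside hairpins, 0.878 c reads were found per 100 a reads, against 0.00273 per 100 at that hairpin. The Mir181b-1 hairpin held 20550 reads named miR-181b-5p and 36 named miR-181d-5p, or 0.175 per 100, against 2.49 d per 100 b outside hairpins. At the hairpin rates, 14.2 of the 4554 wild-type enriched c reads (0.311%) and 198 of the 2824 d reads (7.03%) would be a or b reads under another name. At their own hairpins, 37 of 38 Mir181c and 25 of 27 Mir181d reads of the wild-type enriched libraries bore the matching name, and all 34 and 29 of the knockout ones did.

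miR-181c-5p and miR-181d-5p took a small and similar share of Ago2 chimeras in both genotypes. In the wild-type Ago2 IP, miR-181c-5p made up 0.258%, 0.219% and 0.271% of the chimeric reads outside Mir181 hairpins, and in the knockout 0.293%, 0.315% and 0.301%. The knockout values were all above the wild-type values, by a small margin. miR-181d-5p made up 0.247%, 0.258% and 0.260% in wild type and 0.270%, 0.280% and 0.319% in the knockout, likewise all above wild type. These shares are relative to a pool from which the knockout had lost most miR-181a and miR-181b reads. A fit over 117 miRNAs that normalizes on the bulk of them (trimmed mean of M values, TMM) called 8.55% of miRNAs changed at an adjusted p of at most 0.05. In that fit the log2 knockout to wild-type difference was -0.25 for miR-181c-5p (SE 0.092, edgeR adjusted p = 0.084) and -0.35 for miR-181d-5p (SE 0.089, edgeR adjusted p = 0.033). With library sizes alone the median miRNA shifted by 0.53 and the members by 0.29 and 0.18, so both stood below the median miRNA under either scaling while the sign of their own change turned. On that scaling c was called higher in the knockout (edgeR adjusted p = 0.020) and d was not called (edgeR adjusted p = 0.11). The miR-181d-5p call was lost with DESeq2 (adjusted p = 0.076) and in 4 of 6 fits with 1 library left out: wild-type Ago2 IP library 1 (edgeR adjusted p = 0.065), 2 (0.083) or 3 (0.087), or knockout Ago2 IP library 1 (0.082).

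Within the family, in contrast, c and d moved from a trace to a large part. In the Ago2 IP they made up 1.70%, 1.57% and 1.69% of miR-181-5p reads in wild type and 43.6%, 44.0% and 43.8% in the knockout. In the enriched libraries the values were 1.14%, 1.15% and 1.18% in wild type and 36.3%, 36.0% and 35.1% in the knockout. The groups did not overlap (differences of 42.2 and 34.6 percentage points, exact two-sided permutation p = 0.1 in each, the smallest that 3 against 3 libraries allow, adjusted p = 0.12 over 6 tests). With knockout enriched libraries 2 and 3 summed, the knockout enriched mean was 36.0% ± 0.423 (SD, n = 2). Deletion of the a-1 and b-1 hairpins is part of the design, and a share rises when the rest of its total falls.

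Enrichment raised both names, and miR-181c-5p by more than miR-181d-5p. miR-181c-5p made up 0.704%, 0.700% and 0.710% of reads in wild-type enriched libraries and 16.5%, 16.2% and 16.0% in the knockout ones. miR-181d-5p made up 0.422%, 0.435% and 0.461% in wild type and 8.86%, 9.67% and 9.25% in the knockout. Against the Ago2 IP, the TMM log2 increase in wild type was 7.23 for miR-181c-5p (SE 0.16) and 6.52 for miR-181d-5p (SE 0.14), with edgeR adjusted p of 7.47e-179 and 1.88e-180, when 7.94% of 126 miRNAs were called. In the knockout the increases were 7.31 (SE 0.096, edgeR adjusted p = 2.30e-20) and 6.58 (SE 0.11, edgeR adjusted p = 2.38e-19), when 21.0% of 100 miRNAs were called. With library sizes alone the 2 wild-type increases were 1.5 and 0.79 while the median miRNA fell by 5.73, and the knockout increases were 5.74 and 5.01 while the median fell by 1.64.

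The balance of the 2 names changed with enrichment and little with genotype. In the Ago2 IP, d was 48.9%, 54.1% and 48.9% of c plus d in wild type and 48.0%, 47.0% and 51.4% in the knockout. After enrichment it made up 37.5%, 38.3% and 39.4% in wild type and 34.9%, 37.4% and 36.6% in the knockout. Enriched libraries lay below Ago2 IP libraries without overlap in both genotypes, with differences of -12.3 points in wild type and -12.5 in the knockout (exact permutation p = 0.1, adjusted p = 0.12). The genotypes overlapped in the Ago2 IP (difference -1.86 points, exact permutation p = 0.5) and did not in the enriched libraries (difference -2.09 points, exact permutation p = 0.1, adjusted p = 0.12). Between the enriched groups, the fit over 64 miRNAs, which called 4.69% of them, gave -0.07 for miR-181c-5p (SE 0.15, edgeR adjusted p = 0.83) and -0.20 for miR-181d-5p (SE 0.16, edgeR adjusted p = 0.65). Library sizes alone turned these to 4.53 and 4.40, beside a median shift of 4.59. Leaving out wild-type enriched library 3 turned the miR-181c-5p value to 0.025.

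**Figure D1:**
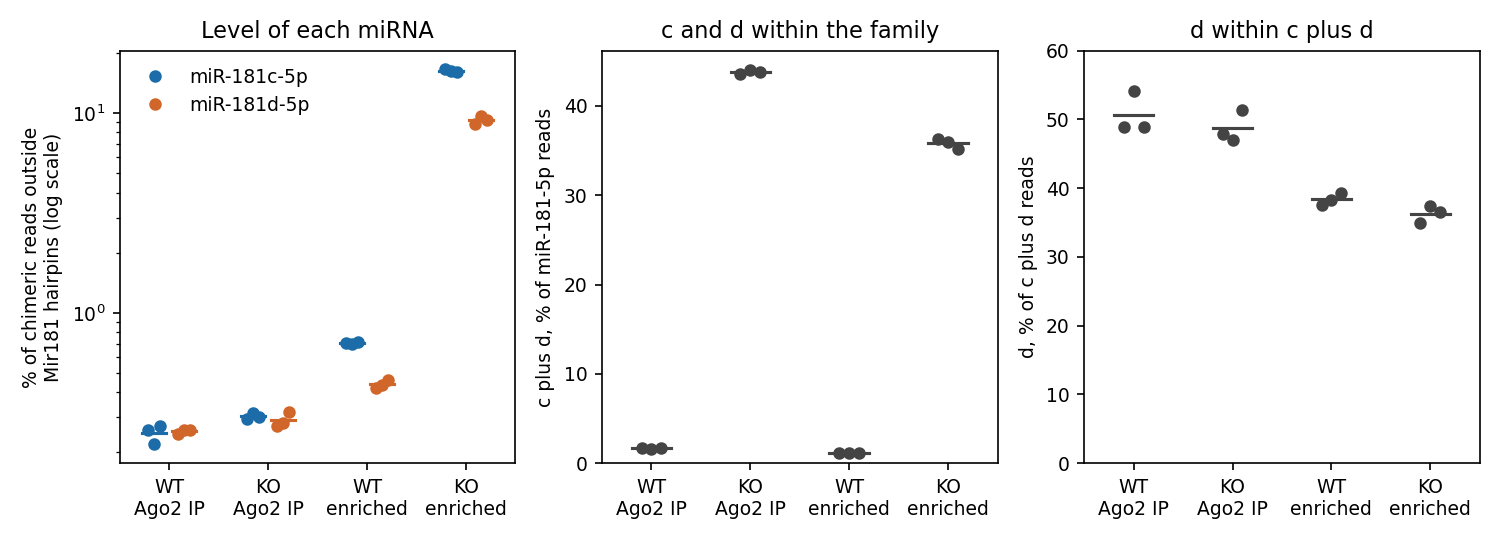
Left, share of each miRNA among chimeric reads outside Mir181 hairpins (log scale); middle, c plus d as a share of miR-181-5p reads; right, d as a share of c plus d reads. Each point is 1 library and each line the mean of 3; c plus d reach 43.8% of family reads in the knockout Ago2 IP against 1.65% in wild type, and d falls from 48.8% or 50.6% of c plus d in the Ago2 IP to 36.3% or 38.4% after enrichment.

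The targets of both names were spread thinly over many genes. Of 15033 gene spans with any miR-181-5p read, 4969 (33.1%) held a c or d read and 316 (2.10%) held at least 10. A gene span is the whole RefSeq interval of a gene, and placement in exons, introns or untranslated regions was not analysed here. In the knockout enriched libraries 88.5% ± 0.905 of c reads and 87.0% ± 1.49 of d reads (SD, n = 3) fell in spans of protein-coding genes. Another 2.38% ± 0.142 and 3.47% ± 0.755 fell in long noncoding RNAs, and 5.96% ± 0.755 and 5.01% ± 0.362 in no span. Where the gene's strand is given, 97.7% of c and 97.8% of d reads lay on its sense strand. The 9583 c and d reads of these libraries formed 7125 clusters of reads at most 20 bases apart, of which 6310 held a single read and 55 held 10 or more.

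In the knockout enriched libraries, the gene with most c plus d reads was Idh3g, the gamma subunit of mitochondrial isocitrate dehydrogenase. In knockout enriched libraries 1 to 3, Idh3g held 37, 64 and 15 c reads and 2, 4 and 4 d reads, and in wild-type enriched libraries 21, 6 and 9 c and 0, 3 and 0 d. Nearly all of the c reads fell in 1 stretch at chrX:73779985-73780325 on the minus strand, which held 113 c and 10 d reads in the knockout. Gm4258, a long noncoding RNA, held 15, 18 and 9 c and 16, 22 and 15 d reads in the knockout. Its span, chr1:137898464-137963020 on the plus strand, ends 3434 bases before the Mir181a-1 hairpin. Rn18s-rs5, an 18S ribosomal RNA sequence, held 51 c and 49 d reads in the knockout enriched libraries. It held 37 of each in the wild-type ones, where it came first. Reads in this span may derive from any copy of the ribosomal RNA. The span was not particular to c and d. In the knockout enriched libraries it took 0.826% of c, 1.38% of d and 1.98% of reads of miRNAs outside the family. In the wild-type ones these means were 0.831%, 1.33% and 1.74%. At its main stretch, chr17:39847399-39848064, only 52.4% of knockout enriched reads were miR-181 reads, against 100% at the Idh3g stretch.

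Other leading spans of the knockout enriched libraries held fewer reads. Atrx, a chromatin remodeller, held 23, 18 and 8 c reads and 13, 14 and 2 d reads. Satb1, a genome organiser of thymocytes, held 10, 13 and 4 c and 9, 12 and 3 d reads. Themis, a regulator of T cell receptor signalling in thymocyte selection, held 5, 15 and 6 c and 5, 7 and 1 d reads. Bcl11b, a transcription factor of T cell commitment, held 6, 14 and 3 c and 3, 9 and 1 d reads. The rest of the leading 15 were Cd4, Mbnl1, Prkch, Smg6, Ptbp3, Fam78a, Prps2 and Wasl. In the Ago2 IP libraries the counts were far lower, and Cd4 came first with 9 d reads in wild type, 12 in the knockout and 0 c reads in either.

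**Figure D2:**
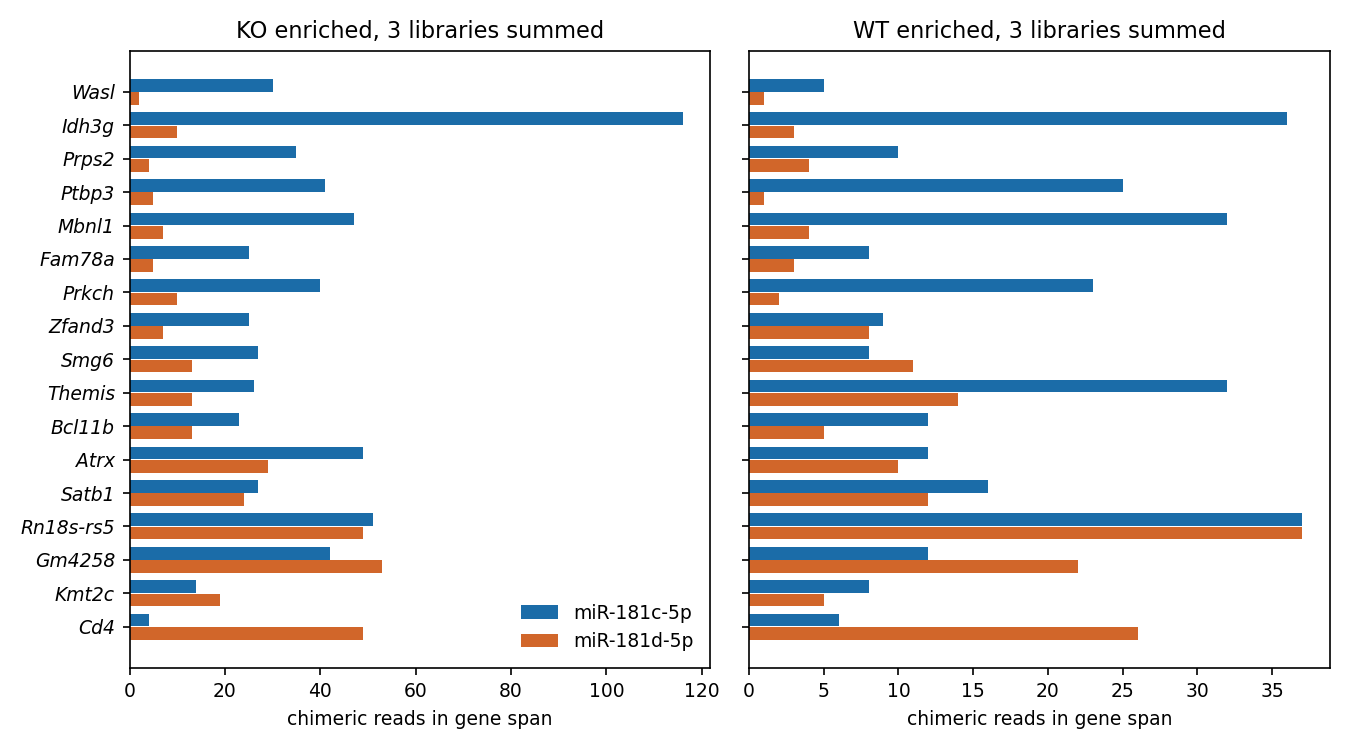
Reads of miR-181c-5p and miR-181d-5p in the 17 gene spans with at least 30 c plus d reads in the knockout enriched libraries, ordered by d share; left, knockout, and right, wild type, each the sum of 3 libraries with its own horizontal scale. Idh3g holds 116 c and 10 d reads in the knockout and 36 c and 3 d in wild type, whereas Cd4 holds 4 c and 49 d, and 6 c and 26 d.

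Some genes were bound mostly by one of the 2 names. The fit of c against d within the knockout enriched libraries tested 7 gene spans and called 71.4% of them at an adjusted p of at most 0.05. Cd4 reached the minimum count in all 3 libraries by its d reads alone and Idh3g by its c reads alone. Their choice for testing therefore favoured a difference. Cd4, the coreceptor of helper T cells, held 1, 2 and 1 c reads against 17, 20 and 12 d reads, with d above c in every library. Its log2 c to d ratio, scaled by TMM over the tested spans, was -3.94 (SE 0.29, edgeR adjusted p = 2.76e-04). With library sizes alone it was -4.26. The d reads lay mainly at chr6:124865882-124866288 on the minus strand, with 44 d and 3 c reads. Idh3g went the other way, with a log2 ratio of 3.05 (SE 0.41, edgeR adjusted p = 0.0017), or 2.71 with library sizes alone.

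Mbnl1 and Ptbp3, which encode splicing regulators, also carried mostly c. Mbnl1 held 19, 19 and 9 c reads and 2, 3 and 2 d reads, a log2 ratio of 2.23 (SE 0.24, edgeR adjusted p = 8.41e-04). Ptbp3 held 14, 23 and 4 c and 0, 4 and 1 d reads, a log2 ratio of 2.51 (SE 0.55, edgeR adjusted p = 0.011). With library sizes alone the Mbnl1 and Ptbp3 ratios were 1.90 and 2.19. Gm4258 leaned to d (log2 ratio -0.78, SE 0.13, edgeR adjusted p = 0.011), and that call was lost without any of the 3 knockout enriched libraries (-0.26 without library 1, -0.45 without 2, -0.77 without 3) or with libraries 2 and 3 summed (edgeR adjusted p = 0.080). Without knockout enriched library 1 the Idh3g value was 3.41 (edgeR adjusted p = 0.060), and 1 span was called. Without library 2, 2 were called. Summing libraries 2 and 3 added calls for Cd8a (log2 ratio -2.53, edgeR adjusted p = 0.0021) and Prkch (1.38, edgeR adjusted p = 0.014). Cd4 and Gm4258 reached the minimum count in all 3 libraries by their d reads and not by their c reads, and Idh3g by its c reads alone, so the choice of genes tested favoured a difference.

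The wild-type enriched libraries, which are separate samples, gave the same directions for those genes. Cd4 held 2, 3 and 1 c reads against 13, 6 and 7 d reads, so d made up 81.2% of c plus d (95% exact interval 63.6% to 92.8%, counting error only), beside 92.5% in the knockout (81.8% to 97.9%). For Idh3g the d share was 7.69% in wild type (1.62% to 20.9%) and 7.94% in the knockout (3.87% to 14.1%). For Mbnl1 it was 11.1% (3.11% to 26.1%) and 13% (5.37% to 24.9%), and for Ptbp3 3.85% (0.0973% to 19.6%) and 10.9% (3.62% to 23.6%). Over all genes, d made up 38.4% of c plus d in wild type and 36.3% in the knockout. The corresponding wild-type fit tested 5 spans and called 20.0%: Hspa8, a heat shock chaperone, with 26, 17 and 17 c against 2, 3 and 2 d reads (log2 ratio 3.28, SE 0.40, edgeR adjusted p = 5.25e-05). Hspa8 reached the minimum by its c reads alone. With identical reads counted once it had too few reads left to be tested. Of the 3 spans then tested, edgeR called 0, with 0 at an unadjusted p of at most 0.05. Cd4 did not pass in the wild-type fit with all reads (-1.81, SE 0.93, edgeR adjusted p = 0.13). Library sizes alone called 80.0%, with Cd4 at -2.70 (SE 0.98, edgeR adjusted p = 0.034) and Hspa8 at 2.36 (SE 0.38, edgeR adjusted p = 4.67e-04).

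Genes that leaned to d tended to lean to b. Across the 17 spans with at least 30 c plus d reads in the knockout enriched libraries, the d share of c plus d and the b share of a plus b had a Spearman rho of 0.75. It was 0.55 over the 115 spans with at least 10 such reads. In wild type rho was 0.39 over 76 spans with at least 10 reads and 0.90 over 19 with at least 20. These are descriptions across genes from the same libraries, with no test. Cd4 was highest on both scales in the knockout, with d at 92.5% of c plus d and b at 89.0% of a plus b. Idh3g was low on both, at 7.94% and 11.5%, and so was Prps2, a nucleotide synthesis enzyme, at 10.3% and 7.02%. Atrx stood apart, with b at 66.4% of a plus b and d at 37.2% of c plus d. Wasl, a regulator of actin assembly, had the lowest d share, 6.25%, with a b share of 28.6%. Cd8a, the coreceptor of cytotoxic T cells, below that minimum and taken from the receptor list, had 5 c and 20 d reads, a d share of 80.0% (59.3% to 93.2%) and a b share of 46.4%.

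**Figure D3:**
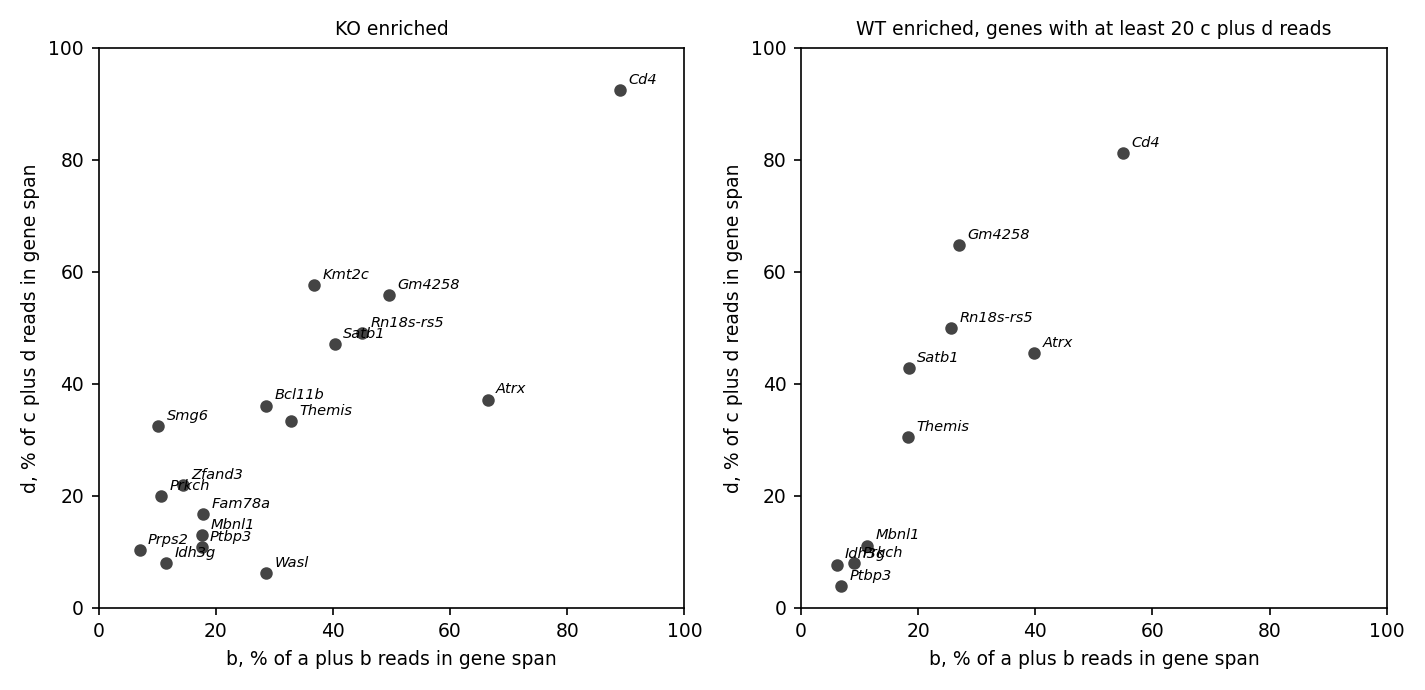
For each gene span, the share of b in a plus b reads (horizontal) and of d in c plus d reads (vertical), in percent; left, knockout enriched, spans with at least 30 c plus d reads; right, those of them with at least 20 in wild-type enriched. Cd4 lies at the top of both panels (92.5% and 81.2% d), and Idh3g, Ptbp3 and Mbnl1 lie low in both. Wasl is lowest at left (6.25%) and Ptbp3 at right (3.85%).

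Some tested genes took a different share of miR-181c-5p reads than of miR-181a-5p reads. In the knockout enriched libraries the fit of c against a tested 21 spans and called 47.6% of them, 33.3% with a lower and 14.3% with a higher share of c than of a reads. The median of the tested spans was 0.15 on the log2 scale. Pik3r1 and Btg2 reached the minimum count in all 3 libraries by their a reads and not by their c reads. Their choice for testing therefore favoured a lower c. Pik3r1, the regulatory subunit of phosphoinositide 3-kinase, held 40, 45 and 26 a reads and 2, 2 and 1 c reads. It took 1.02% ± 0.250 of a reads and 0.0867% ± 0.0185 of c reads (SD, n = 3), a log2 ratio of -3.56 (SE 0.20, edgeR adjusted p = 6.27e-04). Btg2, an antiproliferative gene, held 22, 37 and 11 a and 1, 1 and 1 c reads (log2 ratio -3.61, SE 0.36, edgeR adjusted p = 0.0035). Ccr7, a chemokine receptor of maturing thymocytes, held 18, 31 and 7 a reads and 0, 1 and 0 c reads (-4.67, SE 0.52, edgeR adjusted p = 0.0037).

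Smg6, a nuclease of nonsense-mediated decay, had the most a reads of these genes, 83, 98 and 48, and 9, 9 and 9 c reads (-2.23, SE 0.28, edgeR adjusted p = 0.0046). Tpr, a nuclear pore protein, Mcph1 and Prrc2b were lower by -2.80, -1.63 and -1.59 (edgeR adjusted p = 0.026, 0.0061 and 0.0061). Of the 7 lower calls, 5 reached the minimum count in all 3 libraries by their a reads and not by their c reads, and were therefore likely to be tested because a was high. A higher share of c than of a was called for Wasl (1.07, SE 0.25, edgeR adjusted p = 0.026), Kmt2a, a histone methyltransferase (1.02, SE 0.23, edgeR adjusted p = 0.030), and Atrx (1.0, SE 0.28, edgeR adjusted p = 0.042), which reached the minimum by its c reads and not by its a reads. Wasl held 13, 13 and 4 c reads beside 8, 13 and 4 a reads. Without knockout enriched library 1, 2 spans were called, and without library 2, 3 were; Pik3r1 was called without any 1 of the 3, between -3.74 and -3.31. With knockout enriched libraries 2 and 3 summed, the Wasl and Kmt2a calls were lost (edgeR adjusted p = 0.098 and 0.10). Arl15 was then called higher in c (log2 ratio 1.98, edgeR adjusted p = 0.0012). The Atrx call was lost when identical reads were counted once (log2 ratio 0.54, edgeR adjusted p = 0.40), and 5 of the 10 calls held there. With DESeq2 only the Pik3r1, Btg2 and Ccr7 calls held, and Smg6 was at -2.11 (DESeq2 adjusted p = 0.18). Idh3g, with the most c reads, did not pass (0.34, SE 0.17, edgeR adjusted p = 0.18).

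**Figure D4:**
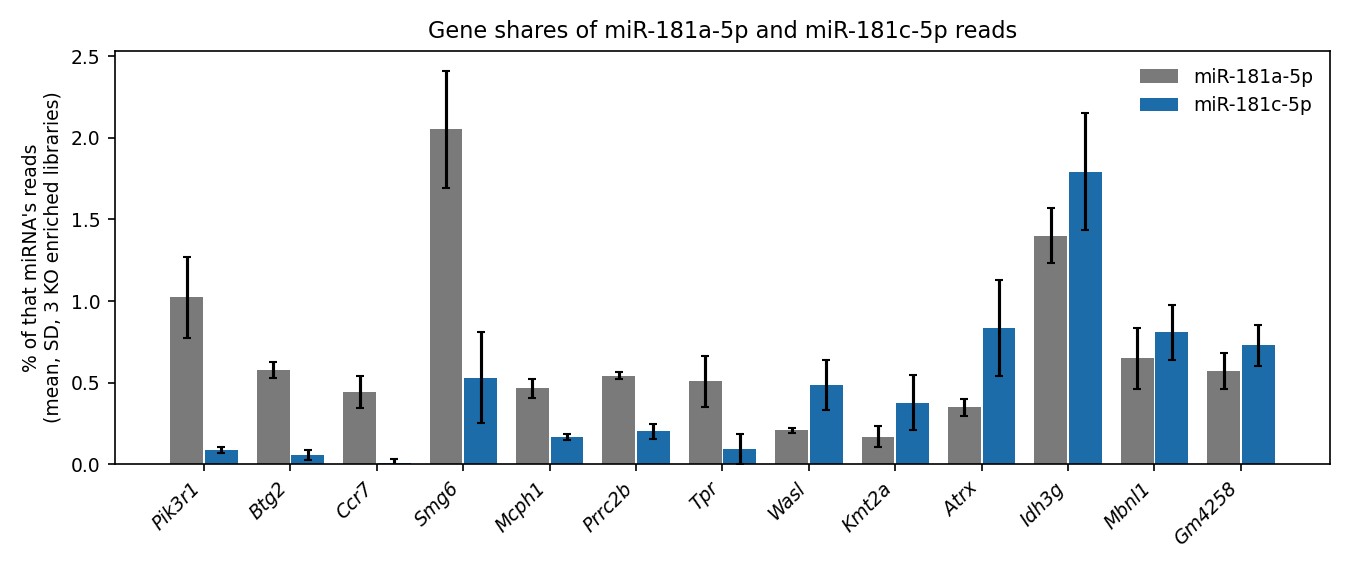
Share of all miR-181a-5p reads and of all miR-181c-5p reads that fell in each of 13 gene spans in the knockout enriched libraries (bars, mean; error bars, SD over 3 libraries, cut at 0). Pik3r1 takes 1.02% of a reads and 0.0867% of c reads, whereas Wasl, Kmt2a and Atrx take a larger share of c than of a.

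In wild type the same contrast changed with the scaling. TMM gave a median of -1.33 over 1624 spans and 85 calls (5.23%), 84 of them lower. Of the 1624 spans, 985 reached the minimum in all 3 libraries by their a reads and not by their c reads, and 12 the other way. Of the 84 lower calls, 56 passed by a alone, and the 1 higher call by c alone. The choice of spans tested therefore favoured a lower c, under either scaling. Library sizes alone gave a median of 0.13 and 6 calls (0.369%). With library sizes alone, Pik3r1 was at -2.80 (SE 0.61), Btg2 at -2.54 (SE 0.55) and Smg6 at -1.82 (SE 0.43), with edgeR adjusted p of 0.0013, 0.0013 and 0.0054. The 3 other calls were Zfp185, lower at -2.17, and Hspa8 and Kif5c, higher at 1.46 and 4.06. Kif5c held 6, 1 and 6 c reads and 88 a reads in all, and its 27 enriched c and d reads of both genotypes stood at only 4 positions.

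For miR-181d-5p against miR-181b-5p, 5 spans were tested in the knockout and 20.0% called. The call was Gnai2, a G protein subunit, lower in d, with 15, 19 and 8 b reads and 1, 4 and 2 d reads (-1.60, SE 0.44, edgeR adjusted p = 0.023). It was lost without knockout enriched library 1 (-0.72, edgeR adjusted p = 0.40) or 3 (-1.84, edgeR adjusted p = 0.18), and no span was called without library 2. With identical reads counted once no span was called either, and Gnai2 was not among the spans tested. Without library 1, 2 spans were called higher in d, and with libraries 2 and 3 summed, 2 lower. Cd4 did not pass (-0.37, SE 0.33, edgeR adjusted p = 0.29), and Gm4258 did not pass (0.65, SE 0.32, edgeR adjusted p = 0.18), although DESeq2 called it higher in d (0.70, adjusted p = 0.021). In wild type, TMM called 24 of 412 spans (5.83%), all lower, around a median of -0.82. Of the 412 spans, 109 reached the minimum in all 3 libraries by their b reads and not by their d reads, and 24 the other way. Of the 24 calls, 16 passed by b alone, so the choice of spans tested favoured a lower d. Library sizes alone called 5 (1.21%) around a median of 0.42. Among these, Gnai2 was again lower in d (-3.42, SE 0.58, edgeR adjusted p = 2.52e-05), with 2, 0 and 0 d reads, and so was Pik3r1 (-3.25, SE 0.92, edgeR adjusted p = 0.035). Rpl21 was higher (1.46, SE 0.29, edgeR adjusted p = 3.18e-04), on this scaling only. TMM called no span higher, and DESeq2 did not call Rpl21. Its reads can also be shared with near-identical pseudogenes.

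Ranked over genes with all reads, c had its highest agreement with a, and d with b, in both enriched groups. In the knockout enriched libraries, over 487 spans with at least 10 family reads, Spearman rho was 0.39 between c and a, 0.16 between c and b, 0.34 between d and b, 0.22 between d and a, and 0.25 between c and d. In wild type, over 6437 spans, the values were 0.52, 0.46, 0.42, 0.38 and 0.31. Thinning a and b to the number of c or d reads left 0.35, 0.16, 0.35 and 0.24 for the first 4 in the knockout and 0.35, 0.34, 0.30 and 0.27 in wild type. At that depth the order for d no longer held in wild type, where d with c, not thinned, was 0.31. The minimum counts reads of all 4 names, so in the knockout c and d themselves help to choose the spans. The wild-type Ago2 IP gave 0.29 for c with a and 0.27 for d with b over 1638 spans, and after thinning 0.18 for c with a, 0.14 for d with b and 0.16 for d with a. The knockout Ago2 IP had too few such spans for a rank.

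A name's agreement with itself between libraries sets the scale for these values. Between different knockout enriched libraries, rho for c with c averaged 0.40 (range 0.39 to 0.41), above c with a at 0.29 (0.19 to 0.36) and c with d at 0.16 (0.11 to 0.19). For d with d it averaged 0.19 (0.15 to 0.26), near d with b at 0.22 (0.18 to 0.33). In wild type, c with c averaged 0.25 and c with a 0.36, where a had far more reads. Of the 20 spans with most reads of each name in the knockout enriched libraries, c shared 12 with a, 10 with b and 9 with d, and d shared 13 with b and 7 with a. Of the reads of the 2 names there, 34.3% fell in a cluster that also held a or b reads in the same group. Against the far more numerous a and b reads of wild type the share was 62.8%, with no share for other reads computed beside it. No correlation here has a test, since genes are not replicates and the names share libraries.

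**Figure D5:**
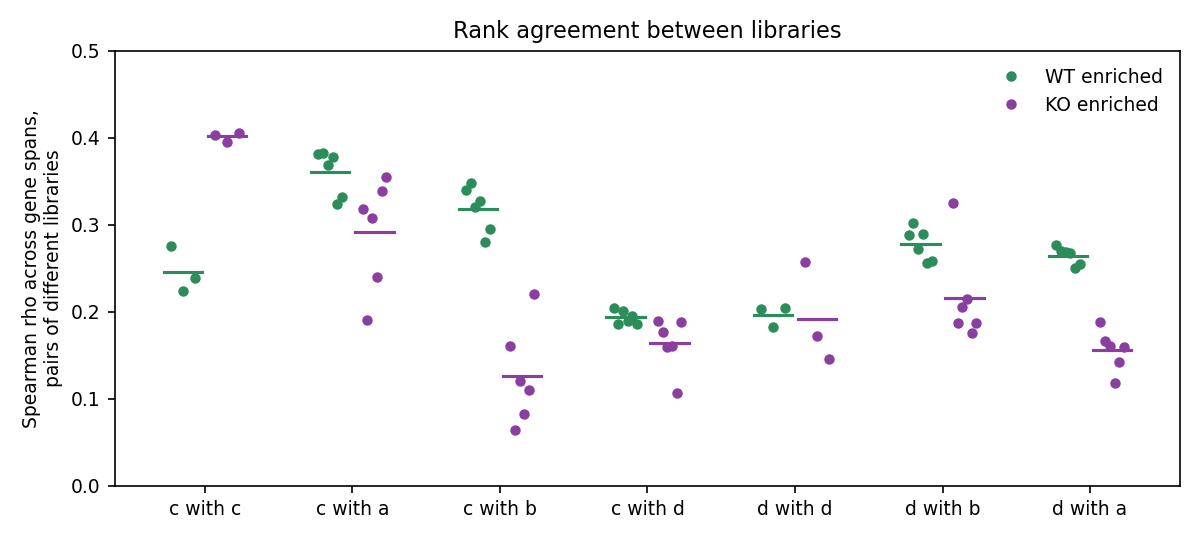
Spearman rho across gene spans with at least 10 family reads between the reads of one name in 1 library and of the same or another name in a different library of the same group (points), with means (lines). In the knockout, c with c averages 0.40, c with a 0.29 and c with d 0.16.

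Gene-by-miRNA pairs were tested across all miRNAs. In the Ago2 IP, 579 pairs were tested between genotypes and 30.9% called, and no c or d pair had enough reads to be tested. In the enriched libraries 1759 pairs were tested and 20.1% called, 6.94% higher in the knockout. All 77 c and d pairs tested were higher. Each of the 77 passed the filter through the knockout libraries alone, where 1 or 2 reads sufficed against 19 to 27 in wild type, so they had to differ and their count supports nothing. The same holds for the 30 c and d pairs tested between enrichment and Ago2 IP in the knockout (93.7% of 268 pairs called, 46.3% higher). In wild type only Hspa8 with miR-181c-5p was tested, of 2780 pairs with 7.81% called higher. It rose by 2.82 on the log2 scale with enrichment (edgeR adjusted p = 0.027), from 0, 0 and 1 reads to 26, 17 and 17. It passed the filter through the enriched libraries alone, so this value too is a description, and DESeq2 did not call it (adjusted p = 0.11).

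Whether the c and d reads spread over genes differently in the 2 genotypes was tested within those reads, apart from their total. Of 12 spans tested 50.0% were called, 25.0% in each direction, around a median of 0.08. Hspa8 was lower in the knockout, with 28, 20 and 19 c plus d reads in wild type and 8, 4 and 2 in the knockout (-2.91, SE 0.41, edgeR adjusted p = 6.44e-08). Rpl21, a ribosomal protein gene with many near-identical pseudogenes, fell from 16, 13 and 10 reads to 0, 3 and 0 (-4.21, SE 0.78, edgeR adjusted p = 1.22e-05). Its level is uncertain, since reads can be shared with those copies. Themis was lower (-0.94, SE 0.36, edgeR adjusted p = 0.030), and Atrx, Idh3g and Gm4258 were higher (1.12, 0.97 and 0.82, edgeR adjusted p = 0.019, 0.022 and 0.043). The Gm4258 call was lost with knockout enriched libraries 2 and 3 summed (0.78, edgeR adjusted p = 0.078). Without wild-type enriched library 2 or 3, or knockout enriched library 1, only Hspa8 and Rpl21 were called; they were called in each of the 6 fits with 1 library left out. Hspa8 and Rpl21 passed the filter through wild type, and Atrx and Idh3g through the knockout. Reads of 2 of these genes were stacked: the 81 enriched Hspa8 reads stood at 10 positions and the 42 of Rpl21 at 5. With identical reads counted once, Hspa8 and Rpl21 had too few reads left to be tested. Of the 9 spans then tested, edgeR called 0, with 1 at an unadjusted p of at most 0.05. DESeq2 called 3 with all reads. The part of repeated reads in these differences was not tested further.

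The gene lists held from 14 to 292 c and d reads each, and members with under 1 read in each enriched library are named only to show the level. Of all gene spans with a miR-181-5p read, 33.1% held a c or d read and 2.10% held at least 10. At least 10 were held by 6 of 17 receptor signalling genes, 5 of 9 miRNA machinery genes and 2 of 5 antiproliferative genes. The counts were 2 of 13 mitochondrial mRNAs, 1 of 8 survival genes and 1 of 10 Notch and Tle genes. They were 1 of 3 targets published for miR-181c or miR-181d elsewhere and 0 of 9 published miR-181 targets in T cells. The lists were not tested against these shares. Of 9 published miR-181 targets in T cells, 8 held such reads, 36 in all and 9 at most in 1 gene. Dusp5, a phosphatase of mitogen-activated protein kinases, held 3 c and 1 d in the knockout enriched libraries, and Bcl2, a survival factor, 0 and 1. Of 3 targets published for miR-181c or miR-181d in other tissues, COX1, the mitochondrial cytochrome oxidase subunit, held 3 c and 5 d reads there, Mgmt 0, and Il2 none in any library. Of 13 mitochondrial mRNAs, 6 held reads, 38 in all. Of 17 genes of T cell receptor signalling 15 held reads, 292 in all, with 106 on Cd4 and 46 on Cd8a. Ptprc, the CD45 phosphatase, held 15 c and 10 d reads in the knockout enriched libraries and Cd247, the zeta chain, 3 and 8.

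Fyn, a kinase, held 7 and 3.

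Among 8 survival genes 6 held reads, with Mcl1 at 14 c and 1 d in the knockout enriched libraries. Of 5 antiproliferative genes 3 held reads, and Cdkn1b, a cell cycle inhibitor, held 22 c and 3 d. Of 10 Notch and Tle genes 5 held reads, led by Tle5 at 3 c and 7 d. Of 9 genes of the miRNA machinery 8 held reads, with a median of 16 reads per gene over the 12 libraries. The Tnrc6 genes encode partners of Argonaute. Tnrc6a held 13 c and 3 d, Tnrc6b 11 and 8, and Tnrc6c 5 and 3 in the knockout enriched libraries, and Ago2 itself held 8 and 5. Between c and a in the knockout, Cdkn1b did not pass (0.02, SE 0.37, edgeR adjusted p = 0.97).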

How the data were processed

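Chimeric reads of 12 miR-eCLIP libraries were analysed, and the 6 input libraries were not analysed here. The authors deposited 1-base positions with a miRNA name and a read count per line. Mapping used STAR 2.7.10 or Bowtie2 2.4.5 with UMI-tools 1.1.1, SAMtools 1.11 and bedtools 2.30.0 on mm10 or GRCm38.p6, per the submitters' processing notes, which give no order of steps. Positions were placed in RefSeq gene spans (GRCm38.p6). Counts per library were fitted with edgeR 4.0.16 quasi-likelihood tests (R 4.3.3; TMM; filterByExpr, minimum count 10; Benjamini-Hochberg over all features), with the library as a block when names were compared within libraries. Single values were compared with exact two-sided permutation tests (scipy 1.17.1). DESeq2 1.42.0, library sizes alone, no filter, identical reads counted once, clusters in place of spans, Mir181 hairpin reads kept, a replicate block, left-out libraries and summed knockout enriched libraries 2 and 3 were alternatives; the last was chosen after seeing the data for the comparisons within c and d reads and between names. Same-numbered libraries did not all deviate together (correlation of deviations over 0.1 was not reached by every pair in any comparison). Between the wild-type and knockout enriched libraries the same-numbered pairs came close, at 0.096, 0.160 and 0.297. Pairs of different numbers there ran from -0.284 to 0.140. This check covered only 28 miRNAs and cannot exclude that the numbers pair samples. Libraries of different groups were treated as unpaired, with the replicate block as the alternative. Scripts were tested on simulated data. Named genes were the 15 leading spans of the knockout enriched, 10 of the wild-type enriched and 10 of the Ago2 IP libraries, up to 5 called spans in each direction with an absolute log2 change of at least 1, and list members with at least 1 read in every enriched library; others were named after their values were seen. Members and lists were chosen with earlier results of these data known. A span at 0 reads in a library allows up to 3 reads; intervals cover counting error only.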

Additional observations from a re-analysis of the deposited data

Results flagged for a closer look

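The opposite strand of the Mir181c hairpin, miR-181c-3p, which enters none of the comparisons, was named in 15 chimeric reads over the 12 libraries. The wild-type Ago2 IP libraries held 4, 1 and 2, the knockout Ago2 IP libraries 3, 2 and 2, and 1 knockout enriched library held 1. No control sample measures its background.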

How the results depend on the processing

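Depth limits the comparisons, since the knockout enriched libraries are the shallowest. With library sizes alone in place of TMM, the knockout to wild-type differences turned to 0.29 and 0.18 for c and d in the Ago2 IP and to 4.53 and 4.40 after enrichment, and calls numbered 2 for d against b in the knockout and, in wild type, 6 for c against a, 5 for d against b and 4 for c against d. DESeq2 gave d -0.35 in the Ago2 IP without a call, 3 calls within c and d reads, 0 for enrichment pairs in wild type, 3 for c against a and 2 for d against b in the knockout, and 1 and 0 for these in wild type. Without a filter there were 419 c and d pairs between the enriched groups, 3 and 166 for enrichment in wild type and the knockout, 1 call within c and d reads, 3 for d against b and 11 for c against d in the knockout, and 76 and 4 in wild type. With identical reads counted once there were 0 enrichment pairs in wild type, 0 calls within c and d reads, 5 for c against a, 0 for d against b and 3 for c against d in the knockout, and 34, 10 and 0 in wild type. Hspa8 and Rpl21 were then not tested within c and d reads. Nor was Gnai2 in d against b in the knockout, or Hspa8 in c against d in wild type. Clusters in place of spans gave 43 pairs between enriched groups, 0 and 15 for enrichment, 2 calls within c and d reads, 2 for d against b and 2 for c against d in the knockout, and 11 and 0 in wild type. Summing knockout enriched libraries 2 and 3 gave 2 calls for d against b. The causes of these changes were not tested.

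Keeping Mir181 hairpin reads gave differences in family share of 41.6 and 33.9 points. For rank agreement in wild type, clusters gave 0.295, 0.162, 0.120, 0.285 and 0.175 for c with a, c with b, d with a, d with b and c with d, and thinning gave 0.348, 0.340, 0.271 and 0.30 for the first 4. In the knockout, clusters gave -0.041 for c with b, 0.123 for d with a and 0.456 for d with b, which was 0.259 at a minimum of 5 family reads and 0.520 at 20. In wild type c against a, the sign turned with library sizes alone for Idh3g (0.21), Mbnl1 (0.32) and Rn18s-rs5 (0.014), and with identical reads counted once for Gnai2 (0.066), Idh3g (0.83), Rpl21 (1.35) and Tle5 (0.47). In wild type d against b it turned with library sizes alone for Rn18s-rs5 (0.050) and Themis (0.17).

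With 1 library left out at a time, calls ranged from 2 to 8 for c against a, 1 to 6 for c against d and 0 to 2 for d against b in the knockout, and from 27 to 47, 1 to 3 and 0 to 2 in wild type. Pairs ranged from 25 to 80 between the enriched groups, 15 to 34 for enrichment in the knockout and 0 to 1 in wild type, and calls within c and d reads from 2 to 6. The level difference ranged from -0.41 to -0.32 for d in the Ago2 IP and from -0.25 to 0.025 for c after enrichment. Rank agreement in wild type ranged from 0.450 to 0.475 (c with a), 0.386 to 0.414 (c with b), 0.242 to 0.275 (c with d), 0.324 to 0.337 (d with a) and 0.361 to 0.363 (d with b), and in the knockout from 0.0585 to 0.176 (c with b), 0.0608 to 0.182 (d with a) and 0.314 to 0.390 (d with b). With a replicate block, the Ago2 IP differences were -0.24 for c and -0.37 for d, pairs numbered 95 between the enriched groups and 43 for enrichment in the knockout, and calls within c and d reads 4; it changed no call on a level.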
